A study of Homo sapiens with 6 samples.

Results

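Melanin synthesis and melanosome genes were followed in 3 established uveal melanoma cell lines, each cultured with and without activated T cells. The group was defined by gene symbol as TYR, TYRP1, DCT, PMEL, MLANA, OCA2, SLC45A2, SLC24A5, GPR143 and RAB38, 10 genes in all. The array annotation used here listed probe sets for 9 of them, out of 18417 genes with a probe set of 1 symbol. DCT, which encodes dopachrome tautomerase, had no listed probe set and was not analysed here. All 9 measured genes had a mean log2 value at or above the filter for testing, the 25th percentile at 5.80, and so entered the test over 13808 genes.

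The co-culture group held Mel 290, Mel 270 and 92.1 cells, choroidal uveal melanoma lines, grown for 64 h in serum-free medium below a porous insert with T cells that beads against CD3 and CD28 had activated. The group grown alone held the same lines for the same time in the same medium with no T cells. The insert let soluble factors through and kept the T cells apart. The labels name no treatment shared by both groups other than the medium. There was 1 array per line and culture, 3 arrays per group and 6 in all, and the lines served as the replicates. P-values of the culture comparison therefore measure how much its difference varied between lines, and each line stands for itself as a model. Contrasts between lines were tested against that same variation, with the 2 cultures of a line in place of repeat cultures. Total RNA of a whole culture was measured, so fewer cells of a kind and less RNA per cell cannot be told apart.

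Melanin is made inside melanosomes, organelles related to lysosomes. PMEL builds the fibrils of the early melanosome. Tyrosinase, the product of TYR, then oxidises tyrosine in the rate-limiting step, and TYRP1 and DCT act later in the same pathway. Ion transporters keep the organelle at a pH at which tyrosinase works. Loss of TYR, OCA2, TYRP1, SLC45A2 or SLC24A5 causes oculocutaneous albinism, and loss of GPR143 causes ocular albinism. In melanocytes of the skin and of the uvea most of these genes are switched on by MITF, a transcription factor that binds E-box sequences with the core CATGTG.

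The promoters are shown because these genes share that textbook regulator. RefSeq (GRCh38.p14) gave a window of 250 bases before to 50 bases after a gene start for 6 of the 9 measured genes. Each is written 5′ to 3′ on the strand of the gene, and capitals mark CATGTG or its reverse complement CACATG, extended by 1 base where the longer TCATGTG or CACATGA is present.
TYR (chr11:89177625-89177924, plus strand): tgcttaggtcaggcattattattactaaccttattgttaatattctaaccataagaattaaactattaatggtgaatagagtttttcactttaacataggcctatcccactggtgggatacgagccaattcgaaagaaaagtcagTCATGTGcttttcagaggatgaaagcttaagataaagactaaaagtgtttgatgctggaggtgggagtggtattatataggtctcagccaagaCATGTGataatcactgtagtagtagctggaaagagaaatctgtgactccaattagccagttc
TYRP1 (chr9:12693135-12693434, plus strand): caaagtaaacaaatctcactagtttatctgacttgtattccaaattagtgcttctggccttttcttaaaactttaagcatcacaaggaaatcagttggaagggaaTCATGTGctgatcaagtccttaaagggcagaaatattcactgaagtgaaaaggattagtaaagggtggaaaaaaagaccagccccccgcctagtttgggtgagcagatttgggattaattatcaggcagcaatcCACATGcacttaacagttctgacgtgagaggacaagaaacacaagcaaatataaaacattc
OCA2 (chr15:28099266-28099565, minus strand): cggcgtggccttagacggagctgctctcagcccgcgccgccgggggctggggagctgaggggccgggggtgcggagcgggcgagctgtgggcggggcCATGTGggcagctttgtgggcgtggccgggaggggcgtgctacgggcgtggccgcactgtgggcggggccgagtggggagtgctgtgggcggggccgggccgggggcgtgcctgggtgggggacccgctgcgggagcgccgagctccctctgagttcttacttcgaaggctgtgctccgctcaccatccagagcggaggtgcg
SLC24A5 (chr15:48120740-48121039, plus strand): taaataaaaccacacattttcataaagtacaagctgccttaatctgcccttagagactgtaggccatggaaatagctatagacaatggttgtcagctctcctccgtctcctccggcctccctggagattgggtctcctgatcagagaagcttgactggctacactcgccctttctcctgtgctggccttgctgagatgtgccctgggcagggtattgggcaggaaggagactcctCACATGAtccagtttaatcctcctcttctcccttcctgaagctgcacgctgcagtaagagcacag
GPR143 (chrX:9765798-9766097, minus strand): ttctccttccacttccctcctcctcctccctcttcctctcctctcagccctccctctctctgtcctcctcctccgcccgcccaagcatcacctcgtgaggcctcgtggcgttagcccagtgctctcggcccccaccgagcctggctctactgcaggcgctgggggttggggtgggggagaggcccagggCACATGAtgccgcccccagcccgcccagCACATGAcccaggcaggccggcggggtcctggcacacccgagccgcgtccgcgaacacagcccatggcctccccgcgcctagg
MLANA (chr9:5890639-5890938, plus strand): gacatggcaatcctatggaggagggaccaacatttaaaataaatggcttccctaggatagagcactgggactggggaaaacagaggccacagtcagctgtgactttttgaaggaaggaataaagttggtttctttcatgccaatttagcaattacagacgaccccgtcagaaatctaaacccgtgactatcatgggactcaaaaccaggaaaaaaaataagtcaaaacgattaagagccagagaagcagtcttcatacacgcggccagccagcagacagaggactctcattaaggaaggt

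Of these 6 windows, 5 held CATGTG on either strand, and MLANA did not. Among all 35116 windows of the same length in that table, 11.1% held it. The longer TCATGTG, which contains the shorter word, stood in 4 of the 6 windows, those of TYR, TYRP1, SLC24A5 and GPR143, and in 2.92% of all windows. TYR and TYRP1 each had 2 copies of the core, one 104 bases (TYR) or 144 bases (TYRP1) before the start and one close to it, at 12 bases (TYR) or 11 bases (TYRP1). GPR143 had both of its copies in the longer form, 61 and 33 bases before the start. The words were matched by letters, so a match is a description of the sequence and not evidence of binding.

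The arrays behaved alike. Column medians of all probe sets lay between 6.63 and 6.69, and r between the co-culture and alone arrays of a line was 0.962 to 0.980 over 33297 probe sets, which are not independent. Melanocyte lineage markers outside the group checked the cell type, 7 of 8 listed being measured. PAX3 reached at most 5.30 on the Mel 290 arrays, below the filter level, against 9.14 to 10.59 on the 4 arrays of 92.1 and Mel 270. EDNRB reached at most 5.03 in Mel 290, against 10.31 to 11.72 on the other 4. SOX10 (7.25 and 6.84) and MITF (8.16 and 8.96) stayed above it in Mel 290 with T cells and alone, and S100A1 had 6.28 and 5.71 there against 6.97 to 8.86 on the other 4. KIT and S100B did not follow this order: in 92.1 they had 4.24 and 4.76 with T cells and 4.50 and 4.71 alone, below the filter level as in Mel 290 (4.65 and 4.69 with T cells, 4.81 and 4.67 alone), and Mel 270 was the line with signal, at 6.20 or more in both cultures. T cell markers had summed log2 levels of 83.0 to 93.7 in the co-cultures and 83.5 to 90.7 alone over 15 genes. In co-culture 0 of 7 tested passed in limma (0 at an unadjusted p under 0.05). No array had CD3D, CD3E or CD3G above 5.70. CD7, with line means of 8.17 to 8.43, NKG7 (6.99 to 7.22), CD8A, CD8B, GZMB and LCK were above the filter level on every array, with T cells and alone. CD7 differed between cultures by 0.11 and NKG7 by 0.07.

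The first comparison asked how soluble factors of activated T cells changed these genes. Every one of the 9 was lower in co-culture in 92.1 and in Mel 270. In Mel 290, TYR, TYRP1, MLANA and SLC24A5 lay below the filter level in both cultures and so had no usable direction, PMEL, SLC45A2 and GPR143 were lower, and OCA2 and RAB38 were higher. Over all tested genes, 60.1% were lower in 92.1, 57.3% in Mel 270 and 49.2% in Mel 290, and 25.5% in all 3 lines. These shares count values as deposited, low ones included. On that count 6 of the 9 were lower in all 3 lines, of which PMEL, SLC45A2 and GPR143 had a usable direction in Mel 290. With values below the filter level raised to it, the shares were 58.7% in 92.1, 55.7% in Mel 270 and 48% in Mel 290. On deposited values, 5 of the 9 genes were at least 2-fold lower in 92.1, 6 in Mel 270 and 1 in Mel 290. SLC45A2, counted in each line, was under 2-fold in Mel 270 (-0.76) and Mel 290 (-0.87) with low values raised. The mean over the lines ran from -0.23 for TYRP1 to -1.66 for SLC45A2 on the log2 scale, with a median of -0.78 over the 9 genes against -0.04 over all tested genes. None of the 9 passed an adjusted p of 0.05 in limma over all genes, where 0.0362% of genes were called lower. At an unadjusted p under 0.05, 4 of the 9 were lower, those of SLC45A2, GPR143, TYR and SLC24A5, against 13% of all genes. Being lower in both 92.1 and Mel 270 was common, with 43% of all genes. On deposited values, 1.35% of genes were at least 2-fold lower in both, as TYR, SLC45A2, SLC24A5 and RAB38 were. The 2-fold shares within single lines were 2.71% in 92.1, 4.52% in Mel 270 and 2.3% in Mel 290.

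**Figure D1:**
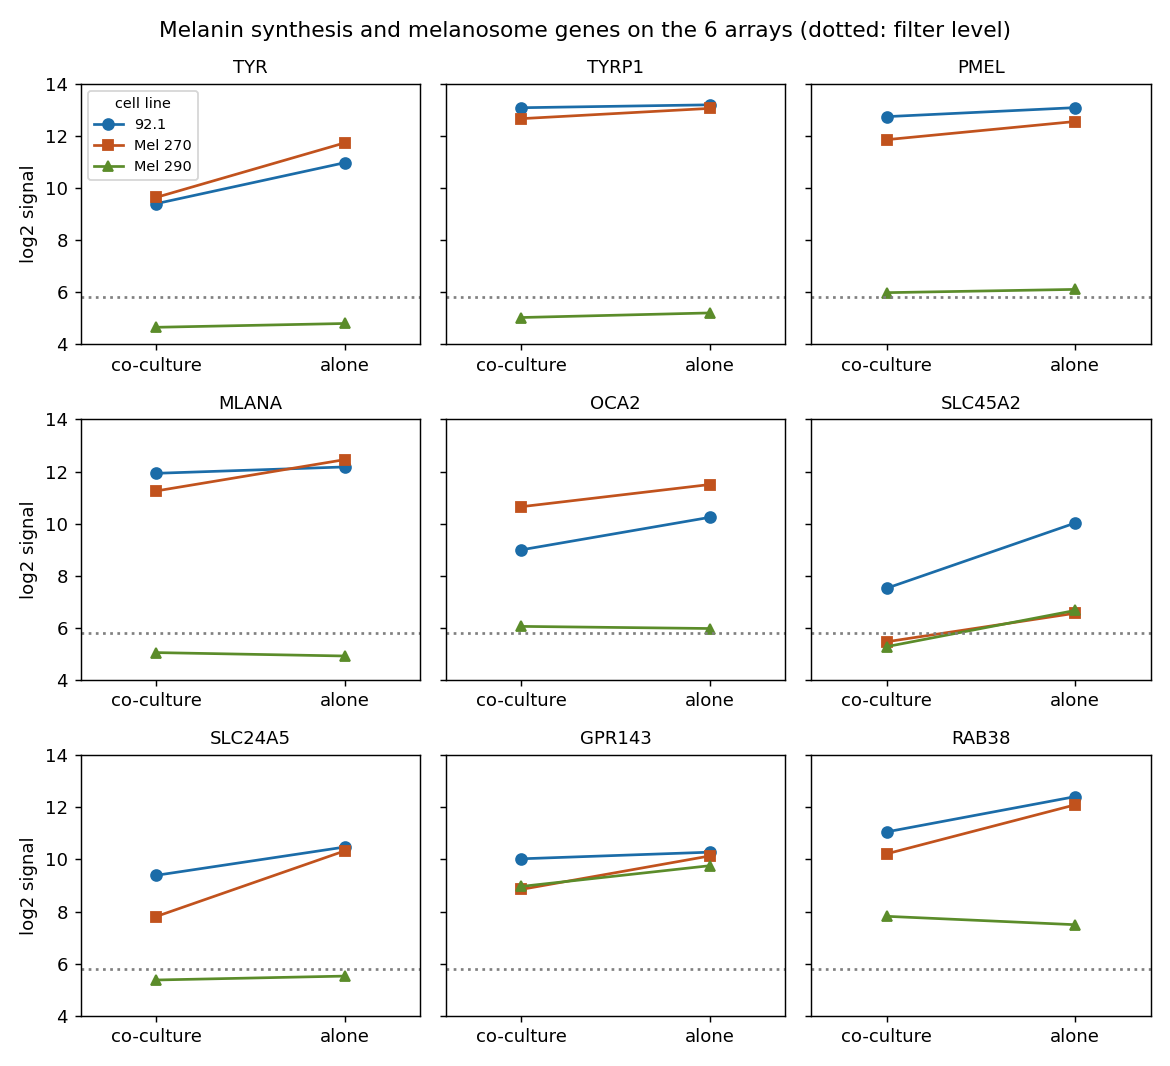
Log2 signal of the 9 measured genes with T cells (left) and alone (right), 1 point per array and 1 line per cell line, with the filter level of 5.80 dotted. In 92.1 and Mel 270 all 9 genes slope up towards growth alone, and in Mel 290 TYR, TYRP1, MLANA and SLC24A5 lie below the dotted line in both cultures.

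Tyrosinase was among the genes with the larger differences. TYR (probe set 7942991) had 9.39 in 92.1, 9.63 in Mel 270 and 4.64 in Mel 290 with T cells, against 10.96, 11.72 and 4.79 alone. Both co-cultures of 92.1 and Mel 270 were thus below both arrays grown alone, while Mel 290 carried no TYR signal above the filter level in either culture. The TYR signal was 33.6% of that alone in 92.1 and 23.4% in Mel 270. Its mean difference was -1.27 ± 1.01 (SD, n = 3 lines), with a 95% interval from -2.25 to -0.29 and an adjusted p of 0.17 in limma. A second TYR probe set, 7948085, gave -2.00 in 92.1, -2.37 in Mel 270 and -0.32 in Mel 290. With Mel 290 left out, the TYR difference was -1.83 (limma adjusted p = 0.077), and its adjusted p ran from 0.077 to 1.00 over the alternatives tried.

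The TYRP1 product is tyrosinase-related protein 1, which in the mouse oxidises a late intermediate of black melanin. It had 13.07, 12.66 and 5.02 in 92.1, Mel 270 and Mel 290 with T cells, against 13.19, 13.05 and 5.19 alone. The arrays of the pigmented lines overlapped between cultures and the mean difference was -0.23 ± 0.15 (adjusted p = 0.42). Its 95% interval reached from -0.56 to 0.11, so a difference as large as the TYR mean lay outside it. The TYR interval, from -2.25 to -0.29, overlapped it, and the gap between the genes was not tested. The TYRP1 difference was -0.14 without Mel 270 and -0.25 without Mel 290. The highest value of any probe set on the 6 arrays was 13.9, and whether the array compresses differences so near the top of its range was not tested.

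PMEL and MLANA belong to the melanosome before and while pigment is laid down. PMEL had 12.73 in 92.1, 11.85 in Mel 270 and 5.97 in Mel 290 in co-culture, against 13.08, 12.55 and 6.10 alone. The PMEL mean difference was -0.39 ± 0.29 (adjusted p = 0.26), with -0.24 without Mel 270 and -0.52 without Mel 290. MLANA, a melanosome membrane protein that is also the T cell antigen MART-1, had 11.93, 11.25 and 5.05 with T cells, against 12.18, 12.46 and 4.92 alone. For MLANA the lines diverged: the signal was 84.4% of that alone in 92.1 and 43.4% in Mel 270, and the mean difference was -0.44 ± 0.69 (adjusted p = 0.46). It was -0.06 without Mel 270 and -0.72 without Mel 290.

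**Figure D2:**
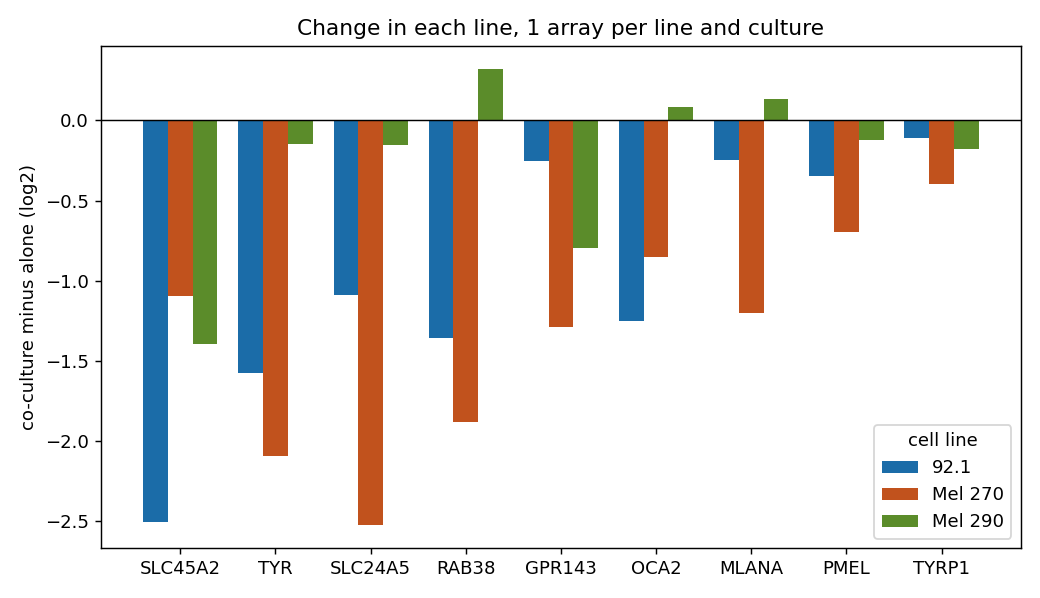
Co-culture minus alone on the log2 scale for each of the 9 genes (ordered by their mean) in each line, 1 bar per line and so without error bars. SLC45A2 is the gene with bars beyond -1 in all 3 lines (not so with low values raised), TYR, SLC24A5 and RAB38 have such bars in 92.1 and Mel 270, and TYRP1 stays within -0.39 of 0.

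Transporters of the melanosome make up the next 3 genes. SLC45A2, a transporter that helps to keep melanosomes from turning acid, had 7.52 in 92.1, 5.46 in Mel 270 and 5.27 in Mel 290 with T cells, against 10.02, 6.56 and 6.66 alone. It was the 1 gene of the 9 that was at least 2-fold lower in all 3 lines, which 0.232% of all genes were. The signal was 17.6% of that alone in 92.1, 46.8% in Mel 270 and 38.1% in Mel 290. Its mean difference was -1.66 ± 0.74, with a 95% interval from -2.42 to -0.91 and an adjusted p of 0.085, the lowest of the 9. The co-culture values of Mel 270 and Mel 290 lay below the filter level, and with low values raised to 5.80 the differences there were -0.76 and -0.87, under 2-fold, and the mean was -1.38 (adjusted p = 0.15). Over the alternatives its adjusted p ran from 0.071 to 1.00.

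SLC24A5 encodes a potassium-dependent sodium/calcium exchanger of the pigment cell. It had 9.39 in 92.1, 7.81 in Mel 270 and 5.37 in Mel 290 with T cells, against 10.48, 10.33 and 5.52 alone. The difference was larger in Mel 270, where 17.4% of the signal alone was left, than in 92.1, where 47.1% was. Its mean was -1.25 ± 1.19 (adjusted p = 0.22), with -0.62 without Mel 270 and -1.80 without Mel 290. OCA2, an anion transporter of the melanosome, had 8.99, 10.65 and 6.05 in co-culture, against 10.24, 11.50 and 5.97 alone. Here the order of the lines was the other way, with 42.0% left in 92.1 and 55.4% in Mel 270, and a mean difference of -0.67 ± 0.68 (adjusted p = 0.27). The OCA2 mean was -0.39 without 92.1 and -1.05 without Mel 290.

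RAB38 and GPR143 act in melanosome assembly and size. RAB38, a small GTPase that routes tyrosinase and TYRP1 to the melanosome, had 11.06 in 92.1, 10.21 in Mel 270 and 7.82 in Mel 290 with T cells, against 12.41, 12.10 and 7.49 alone. The lines differed in direction, with 39.1% of the signal alone in 92.1, 27.1% in Mel 270 and 125% in Mel 290. The mean difference was -0.97 ± 1.15 (adjusted p = 0.30), with -1.62 without Mel 290 (adjusted p = 0.093, 0.093 to 1.00 over the alternatives) and -0.52 without Mel 270 (adjusted p = 0.68). GPR143, a receptor on the melanosome membrane, had 10.02, 8.85 and 8.96 in co-culture, against 10.28, 10.13 and 9.76 alone. It was well above the filter level in every line and lower in all 3, by a mean of -0.78 ± 0.52 (95% interval -1.34 to -0.21, adjusted p = 0.15).

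The cultures overlapped for each of the 9 genes once all 3 lines were pooled, where 5.96% of all genes had every co-culture array below every array alone. For the 7 genes lowest in Mel 290 this was fixed by the gap between lines. Mel 290 alone lay below the other co-cultures, so the overlap does not bear on the difference within a line. Within 92.1 and Mel 270, TYR, MLANA, SLC24A5, GPR143 and RAB38 had both co-cultures below both arrays alone, as 24.2% of all genes did. Whether the lines differed in response could not be tested with 1 array per line and culture. FN1, which encodes fibronectin and stood on the mesenchymal marker list, was higher in co-culture in the same 2 lines, with 10.48 in 92.1, 12.70 in Mel 270 and 12.30 in Mel 290 with T cells, against 8.04, 10.20 and 12.22 alone. Its mean difference was 1.67 ± 1.38 (limma adjusted p = 0.17, unadjusted p = 0.022), and 0 of the 10 tested mesenchymal markers passed in co-culture. Its part in the values of the pigment genes was not tested.

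The second comparison set Mel 290 against 92.1 and Mel 270. Of the 5 pigment genes with signal above the filter level on a Mel 290 array, limma called 4 lower in that line, in a contrast where it called 14.9% of all genes lower and 11.3% higher. PMEL differed by -6.52 (SE 0.17, adjusted p = 3.5e-04), OCA2 by -4.33 (SE 0.29, adjusted p = 0.0016), RAB38 by -3.79 (SE 0.46, adjusted p = 0.0063) and SLC45A2 by less. PMEL (5.97 with T cells and 6.10 alone) and OCA2 (6.05 and 5.97) lay just above the filter level in Mel 290, while RAB38, at 7.82 and 7.49, kept a clear signal there.

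TYR, TYRP1, MLANA and SLC24A5 lay below the filter level on both Mel 290 arrays and entered the test through the other 2 lines alone. A difference was thus built into their selection, so it is given as a bound, with low values raised to 5.80, and with no test. The bound was -7.19 for TYRP1, -6.16 for MLANA, -4.63 for TYR and -3.70 for SLC24A5, with Mel 290 at least that far below the other lines. As bounds, these values set no order among the 4 genes or against PMEL, OCA2 and RAB38. PMEL, OCA2 and RAB38 were at least 2-fold lower on both Mel 290 arrays than on all 4 arrays of 92.1 and Mel 270, as 2.77% of all genes were. The 4 genes given as bounds had such gaps too, but are not set against that share because of their selection.

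**Figure D3:**
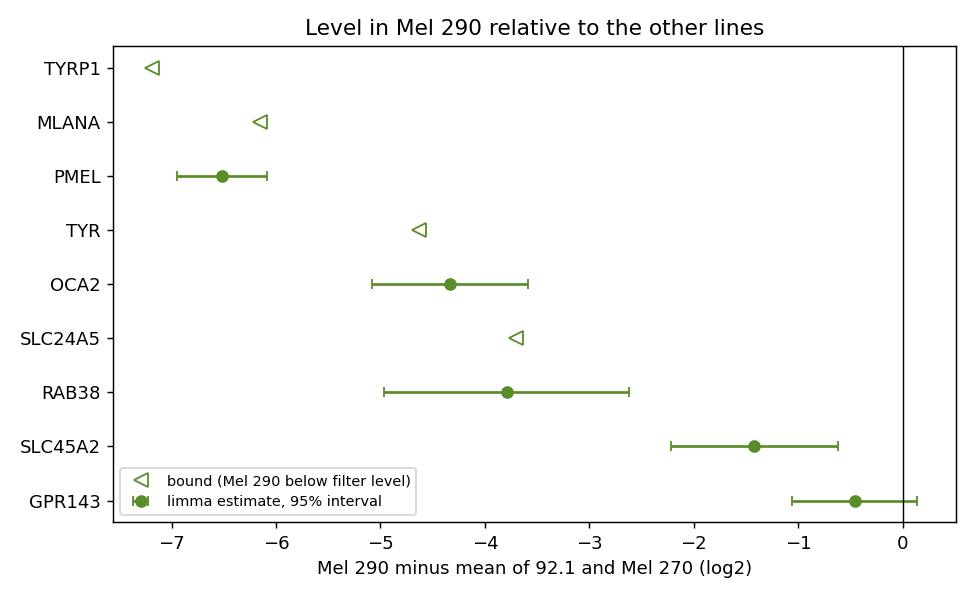
Mel 290 minus the mean of 92.1 and Mel 270 for each gene on the log2 scale, as the limma estimate with its 95% interval over both cultures (circles), or as a bound with low values raised to 5.80 (arrows) for the 4 genes below that level on both Mel 290 arrays. The estimates run from -6.52 for PMEL to -0.46 for GPR143, whose interval is the one that crosses 0, and the bounds from -7.19 for TYRP1 to -3.70 for SLC24A5.

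GPR143 and SLC45A2 had the gaps closest to 0. GPR143 differed by -0.46 (SE 0.23, adjusted p = 0.22), with a 95% interval from -1.06 to 0.14, so that Mel 290 held a GPR143 signal at most about 1 log2 unit below that of the other lines. SLC45A2 was lower in Mel 290 by a difference of -1.42 (SE 0.31, adjusted p = 0.029), and with low values raised to 5.80 this was no longer called (-1.24, adjusted p = 0.080, 0.027 to 0.080 over the alternatives). Its gap came from 92.1, since alone SLC45A2 had 6.66 in Mel 290 and 6.56 in Mel 270.

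Between the pigmented lines, for 92.1 minus Mel 270, SLC45A2 was the gene of the 9 that was called, higher in 92.1 by 2.76 (SE 0.36, adjusted p = 0.021), where 5.31% of genes were called higher and 2.74% lower. OCA2 ran the other way at -1.46 (SE 0.34, adjusted p = 0.066), and PMEL was at 0.71 (SE 0.19, adjusted p = 0.095). The other 6 had differences between -0.50 (TYR) and 0.87 (SLC24A5) that did not pass. For MLANA the sign depended on the culture, with -0.28 alone and 0.68 in co-culture. Mel 290 was thus the lowest line for 7 genes (4 of them by a bound), with 92.1 and Mel 270 not separated by the test, 92.1 was the highest for SLC45A2, and no line was separated for GPR143.

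Mel 290 also differed from the other lines in markers and in culture. Of 10 tested fibroblast and mesenchymal markers limma called 3 higher in Mel 290, where it called 11.3% of all genes so. PDGFRB differed by 3.33 and ZEB1 by 2.48 (2.27 with low values raised, being below the filter level in Mel 270), and ZEB1 was also higher in 92.1 than in Mel 270, by at least 2.39. FAP had 10.61 and 10.26 in Mel 290 with T cells and alone and 4.02 to 4.29, below the filter level, on the other 4 arrays, which bounds its difference at 4.63. FAP entered the test through Mel 290 alone, so its higher call was built into its selection. The count of 3 is therefore not read against the 11.3%. The summed log2 level of all 12 measured markers was 97.2 and 92.5 in Mel 290 with T cells and alone, against 75.1 to 80.0 on the other 4 arrays. The collagen markers COL1A1, COL1A2 and COL3A1 differed by at most 0.21. IL7R, from the T cell list, had 10.43 and 9.75 in Mel 290 with T cells and alone and was below the filter level in the other lines, a difference of at least 4.29. Per the labels, Mel 290 was confluent at the change of medium and the other lines were not, so line and density cannot be told apart. The part of these in the gap of the pigment genes was not tested.

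Likeness of profiles over the 6 arrays was the root mean square difference between log2 values centred on each gene's own mean, a description without a test. SLC24A5 and RAB38 were the closest pair (0.30), followed by PMEL and MLANA (0.34) and TYRP1 and MLANA (0.50). TYRP1 and GPR143 were the farthest apart (3.52). These distances use the Mel 290 values of TYR, TYRP1, MLANA and SLC24A5 below the filter level. Among genes outside the group, those nearest to the members' mean profile were ABCC2 (0.25), FAR2 (0.35), GPM6B (0.42), DPP10 (0.46) and ZNF704 (0.47). ABCC2, an efflux pump of organic anions, was lower with T cells in Mel 270 (-1.46) and 92.1 (-0.44). In Mel 290 ABCC2 was below the filter level in both cultures and had no usable direction. Its gap in that line had a bound of -4.55.

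Regulators of pigment genes were examined next. MITF had 10.22 in 92.1, 8.93 in Mel 270 and 8.16 in Mel 290 with T cells, against 11.01, 11.03 and 8.96 alone. It was lower in all 3 lines, most in Mel 270, by a mean of -1.23 ± 0.75 (adjusted p = 0.12). SOX10 (-0.04 ± 0.44) and PAX3 (0.00 ± 0.33), which both activate MITF, had means near 0. KIT, a receptor for stem cell factor, had a mean of -1.20 ± 1.72 that came from Mel 270, where the difference was -3.19, and TFAP2A, a transcription factor of the lineage, had -0.67 ± 0.82. Of 10 tested regulators and receptors limma called 0 in co-culture and 1 was lower at an unadjusted p under 0.05, against 13% of all genes, with a list median of -0.02.

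In Mel 290 limma called 7 of these 10 regulators lower and none higher, where it called 14.9% of all genes lower and 11.3% higher. Among the 7 were EDNRB, the endothelin receptor of the melanocyte lineage, and PAX3. Both lay below the filter level on both Mel 290 arrays and entered the test through the other lines. Their lower calls were thus built into their selection, and the count of 7 is not read against that share. The bounds were -5.14 for EDNRB and -4.10 for PAX3. MITF was lower by -1.73 (adjusted p = 0.018), as were SOX10 (-1.86), IRF4 (-1.63), LEF1 (-1.55) and MC1R, the melanocortin receptor (-0.75). Between 92.1 and Mel 270, where 5.31% of genes were called higher and 2.74% lower, PAX3 was higher in 92.1 (1.14) and IRF4 (-1.51) was lower. KIT, below the filter level in 92.1, was called at -4.23 and no longer with low values raised (-2.80, adjusted p = 0.11).

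The machinery that builds melanosomes and sorts their cargo is shared in part with other cells. Of 28 tested genes of biogenesis and cargo sorting 0 passed in co-culture in limma and 4 were lower at an unadjusted p under 0.05, a share of the list close to the 13% of all genes, with a list median of -0.12. RAB32, a close relative of RAB38, had -0.80 ± 0.06 (adjusted p = 0.075) with nearly the same value in each line (-0.83 in 92.1, -0.83 in Mel 270 and -0.73 in Mel 290). HPS4, part of the exchange factor for RAB32 and RAB38, had -0.72 ± 0.69 and the adaptor subunit AP1B1 -0.41 ± 0.21. In Mel 290 limma called 4 lower and 1 higher, again close to the 14.9% of all genes for the lower calls and under their 11.3% for the higher. They were LYST (-2.13), HPS5 (-0.79), DTNBP1 (-0.62) and BLOC1S4 (-0.60), which were lower, and HPS3 (0.66), which was higher. RAB32 did not pass in Mel 290 at -0.18, beside -3.79 for its relative RAB38, and the gap between these 2 genes was itself not tested. RAB32 was higher (0.79) and BACE2, a protease that cuts PMEL, lower (-1.13) in 92.1 than in Mel 270.

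Transport genes gave a mixed picture. Of 6 tested genes none passed in co-culture in limma, 1 was lower at an unadjusted p under 0.05 (13% of all genes) and all 6 means were below 0 (median -0.34). The motor MYO5A had -0.79 ± 0.31 (adjusted p = 0.10), its linker MLPH -0.54 ± 1.18 and RAB17 -0.43 ± 0.44. In Mel 290, against the same 14.9% and 11.3% of all genes, limma called 3 of the 6 lower and 1 higher: MLPH (-1.99), RAB17 (-1.62) and MYO5A (-1.36) were lower, while RAB27A, the GTPase that ties MLPH to the melanosome, was higher (0.95). RAB27A was also higher (1.07) and RAB17 lower (-1.22, adjusted p = 0.048, or 0.0502 with low values raised) in 92.1 than in Mel 270.

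**Figure D4:**
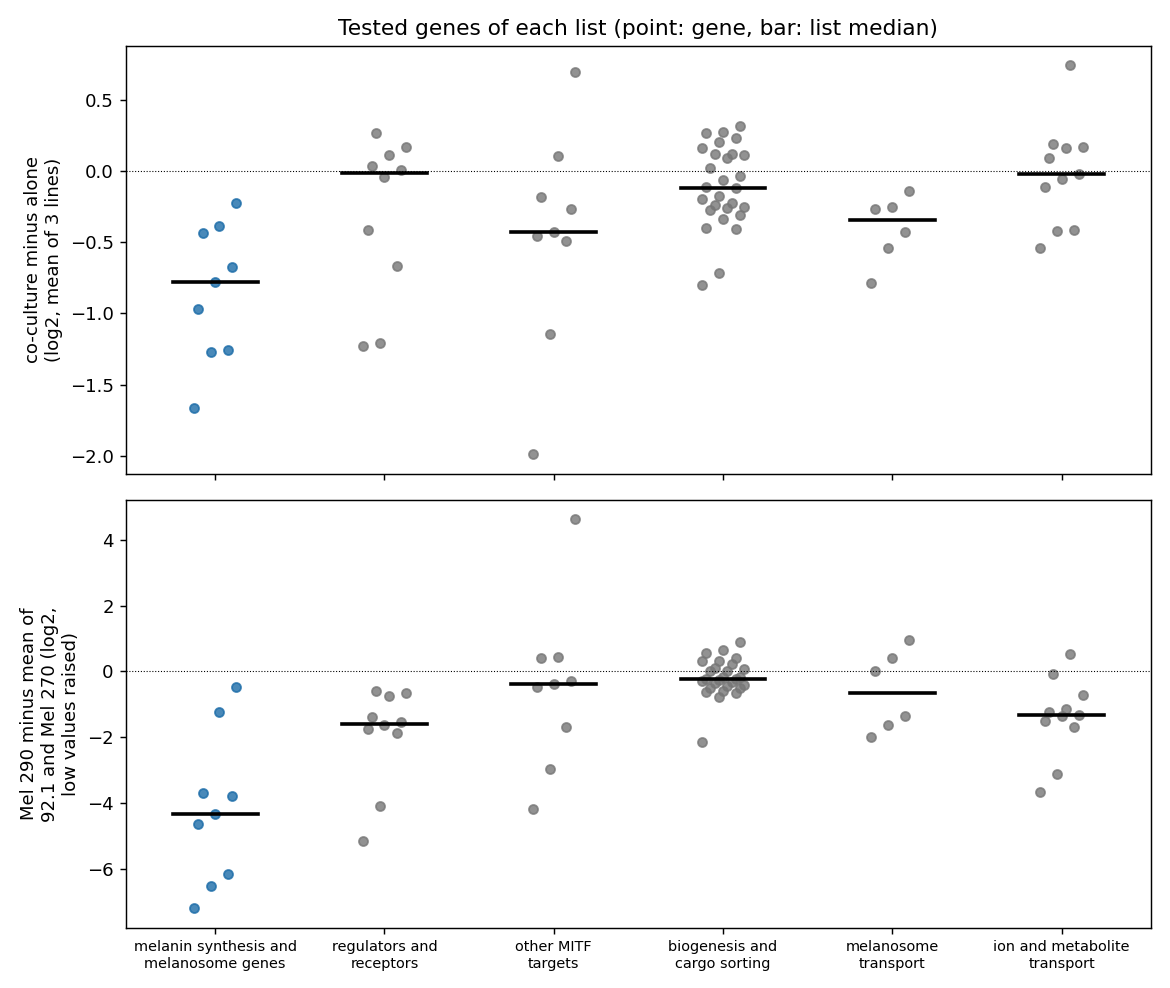
Each point is a tested gene, by list, and each bar a list median, for co-culture minus alone averaged over the 3 lines (top) and Mel 290 minus the mean of 92.1 and Mel 270 with low values raised to 5.80 (bottom), both on the log2 scale. In the top panel the pigment genes lie between -1.66 and -0.23, and the other lists have medians of -0.43 to -0.02.

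Other transporters and pumps of the melanosome were taken as a list of their own. Of 11 tested genes 0 passed in co-culture in limma, and at an unadjusted p under 0.05 1 was higher and 1 lower, against 7.02% and 13% of all genes, with a list median of -0.02. MFSD12, which carries cysteine into melanosomes, was above its level alone in each line, with 11.71, 12.22 and 8.78 in 92.1, Mel 270 and Mel 290 with T cells, against 10.73, 11.62 and 8.14 alone (mean 0.74 ± 0.21, adjusted p = 0.091). The copper pump ATP7A, which supplies tyrosinase, had -0.54 ± 0.92 and the amino acid carrier SLC36A1 -0.42 ± 0.20. In Mel 290 limma called 8 of the 11 lower and 1 higher, against 14.9% and 11.3% of all genes. The 8 were ATP7A (-3.73), MFSD12 (-3.11), the cystine exporter CTNS (-1.68), TPCN2 (-1.36), OSTM1 (-1.32), CLCN7 (-1.23), MCOLN3 (-1.19) and SLC36A1 (-0.72), and ATP6AP2 (0.52), a proton pump accessory subunit, was the higher gene. SLC36A1 (0.93) was higher in 92.1 than in Mel 270, and so was MCOLN3, by at least 3.30, being below the filter level in Mel 270. The lower call of MCOLN3 in Mel 290 (mean 5.94) thus came from 92.1 (mean 9.10) and not from Mel 270.

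Genes listed as MITF targets outside melanin synthesis went several ways. Of 9 tested, 0 passed in co-culture in limma and 3 were lower at an unadjusted p under 0.05, against 13% of all genes (median -0.43). PPARGC1A, a coactivator of mitochondrial genes, had -1.99 ± 0.71 (adjusted p = 0.070), with 6.39, 5.71 and 6.53 in 92.1, Mel 270 and Mel 290 with T cells, against 7.69, 8.43 and 8.48 alone, so the cultures did not overlap, as for 5.96% of all genes. The cell cycle kinase CDK2 had -1.15 ± 0.70 and the protease CTSK 0.69 ± 1.07. In Mel 290 limma called 3 of the 9 lower and 1 higher, against 14.9% and 11.3% of all genes, the higher call being near its share. SNAI2 (-4.17), TBC1D16 (-2.97) and CDK2 (-1.69) were lower and CTSK (4.62) was higher. MET (-2.63) was lower in 92.1 than in Mel 270.

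Markers of the retinal pigment epithelium, the other pigmented tissue of the eye, were mostly low. Of 7 listed 6 were measured and 3 tested, and their summed log2 levels were 35.1 to 37.4 in the co-cultures and 33.9 to 39.0 alone. RPE65 reached at most 4.51 on any array. BEST1 was an exception at 8.98 to 10.41 in 92.1 and Mel 270, and it was lower in Mel 290 (-3.81), while LRAT was higher (0.70). In co-culture 0 of the 3 passed in limma and LRAT alone was lower at an unadjusted p under 0.05. As a check that the co-cultures responded, 13 interferon-gamma response genes were tested. Limma called 9 higher and none lower, where 0.413% of all genes were called higher. Among the 9, the chemokines CXCL9, CXCL10 and CXCL11, the guanylate-binding proteins GBP2, GBP4 and GBP5, and IDO1 lay below the filter level alone in every line. They entered the test through the co-cultures, so a rise was built into their selection. The count of 9 is therefore not read against that share. Their rise is given as a bound, with no test, of 3.95 (GBP4) to 7.03 (CXCL10) with low values raised to 5.80. Among called genes the check thus rests on IRF1 and CD274. IRF1, above that level alone in Mel 270 and Mel 290, rose by 4.75 (limma adjusted p = 0.0039). CD274, above it alone in Mel 290, rose by at least 4.38. CD274, which encodes PD-L1, was also higher in Mel 290 (1.72, limma adjusted p = 0.011). With low values raised this was 1.28 (limma adjusted p = 0.014), since CD274 was below the filter level alone in 92.1 and Mel 270.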

How the data were processed

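RNA of 6 samples was measured on arrays. The deposited values are log2 signals (1.49 to 13.9). Per the submitters' processing notes, Affymetrix Expression Console 1.2.0.20 made them, and no source used here gives the background correction, summarization or normalization. The values were used as deposited. Probe sets were named by an array annotation with symbols updated by gene ID from a RefSeq table (GRCh38.p14, used for names and promoter sequences). Each gene kept its probe set of highest mean over the 6 arrays, and genes with that mean at or above the 25th percentile of annotated probe sets were tested.

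Both comparisons used limma 3.58.1 in R 4.3.3 (lmFit, eBayes, two-sided) with the line as a block, since every line had both cultures, and Benjamini-Hochberg adjustment over all tested genes. The block left 2 residual degrees of freedom and the variance prior added 3.10. Changes are means ± SD over 3 lines. Contrasts of lines use the same fit, whose residual spread holds unequal responses of the lines and not repeat cultures. With 3 pairs, a two-sided exact permutation test reaches p = 0.25 at best and was not used. The number of arrays limits the precision. The fit was tested on simulated data. Alternatives were other normalizations, filters, variance priors, probe set rules, a floor, no block and each line left out. The genes and lists were chosen with earlier results of these data known. Named genes were all members, MITF, every called gene of the other pathway lists or else its 3 largest mean changes, and the 5 nearest profiles, with marker lists given by counts and levels. SOX10 and PAX3 in co-culture, RAB32 in Mel 290, FN1 and other single marker genes fall outside that rule and were named after their values were seen.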

Additional observations from a re-analysis of the deposited data

Results flagged for a closer look

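MLANA, OCA2 and RAB38 were lower in co-culture in 92.1 and Mel 270 and higher in Mel 290. The co-culture minus alone difference of MLANA was 0.131 in Mel 290, -0.24 in 92.1 and -1.20 in Mel 270. For OCA2 it was 0.0812 in Mel 290, -1.25 in 92.1 and -0.85 in Mel 270. For RAB38 it was 0.322 in Mel 290, -1.36 in 92.1 and -1.88 in Mel 270. The difference between lines was not tested, since each line had 1 array per culture. In Mel 290 MLANA lay below the filter level of 5.80 in both cultures, so that its difference is 0 with low values raised, and OCA2 lay just above it.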

How the results depend on the processing

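None of the 9 genes passed the threshold in co-culture under any alternative in which it was tested, and each kept its negative sign in every one. The replicate block, here the cell line, mattered for the counts over all genes: with no replicate block 18 genes were called higher and 0 lower (in place of 57 and 5), and 0 of the 9 pigment genes were called with or without it. Leaving out one line gave 47 to 76 higher and 2 to 9 lower genes, with 0 pigment genes called. Lower calls over all genes numbered 1 after cyclic loess, 9 with the filter at the median and 8 with a trended robust prior. For 92.1 minus Mel 270 the median filter, which tests fewer genes, gave 472 higher calls in place of 733. In Mel 290, 8 pigment genes were called lower, where 14.9% of all genes were. That count includes TYR, TYRP1, MLANA and SLC24A5, which entered the test through the other lines, so their calls are not read as results. The count was 7 with low values raised to 5.80, where SLC45A2 was at -1.24 (limma adjusted p = 0.080). It was also 7 with the filter at the median, which SLC45A2 did not reach. MLANA in 92.1 minus Mel 270 was -0.28 on the arrays grown alone, against 0.20 over both cultures. With low values raised, the Mel 290 differences between cultures of TYR, TYRP1, SLC24A5 and MLANA were all 0, which leaves 3 genes lower and 2 higher in that line. Low signals below 5.80 carry no usable order.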
